A study of Homo sapiens with 6 samples.

Results

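Transcripts of 9 genes of iron uptake, storage, export, haem breakdown and iron sensing were described in Kasumi-1 cells, an established human acute myeloid leukaemia line. The genes were FTL, FTH1, NCOA4, TFRC, SLC11A2, SLC40A1, HMOX1, IREB2 and ACO1, taken by symbol, and all 9 were found among the 32917 genes of the expression table. Cells labelled wild type had received 100 uM CoCl2 together with 10 nM echinomycin for 24 hours. CoCl2 is a hypoxia mimic that stabilises hypoxia-inducible factor (HIF), and echinomycin is a DNA-binding agent that blocks the binding of HIF to its sites. The 6 libraries were 3 pulldowns with an antibody against N6-methyladenosine (m6A), a methyl mark of messenger RNA, and 3 inputs taken before the pulldown, from 3 biological replicates. Cells with CoCl2 alone entered through the authors' list of peaks compared between the combined treatment and CoCl2. Their libraries, and those of control cells, were not analysed here.

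Iron enters most cells bound to transferrin through the transferrin receptor (TFRC), leaves the endosome through the metal transporter DMT1 (SLC11A2) and is stored in ferritin, a shell of heavy (FTH1) and light (FTL) chains. NCOA4 carries ferritin to the lysosome for breakdown, ferroportin (SLC40A1) exports iron, and haem oxygenase-1 (HMOX1) frees iron from haem. When iron is scarce, the iron regulatory proteins IRP1 (ACO1) and IRP2 (IREB2) bind hairpins called iron-responsive elements. Binding in the 5' UTR of FTL, FTH1 and SLC40A1 transcripts represses translation, and binding in the 3' UTR of TFRC protects the transcript from decay. TFRC and HMOX1 are known targets of HIF.

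Short stretches are shown for FTL, the transcript with the highest level and no listed m6A peak, and for TFRC, the gene with a higher peak at both ends. They come from RefSeq's promoter windows on GRCh38.p14, which run from 250 bases before to 50 bases after a start site. The FTL stretch is at chr19:48965329-48965358 on the plus strand, bases 21 to 50 after the start, and its capitals mark the hexaloop of the iron-responsive element. The TFRC stretch is at chr3:196082161-196082190 on the minus strand, 100 to 71 bases before the start, and its capitals mark ACGTG, the core letters of hypoxia response elements.
FTL: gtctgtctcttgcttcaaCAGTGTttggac
TFRC: cctcgcgagcgtACGTGcctcaggaagtga
The element was searched as a C, any 5 bases, CAGTGN, and 5 bases that pair with the first 5 (G with T counted as a pair). On the sense strand it was found in 37 of 35116 windows (0.105%) and on the other strand in 0.111%. Of the 12 windows that matched 7 of the genes, only that of FTL held it. Elements more than 50 bases after a start site, or in a 3' UTR, lie outside these windows and could not be found. ACGTG on either strand was in 21.4% of all windows and in 2 of the 12, those of FTL and TFRC. These are matches of letters, not measured binding. No window matched FTH1 or HMOX1.

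The ferritin chains had the highest levels of the group. FTL (ENSG00000087086, chromosome 19 at 48965309 to 48966879, plus strand) had 2134, 2201 and 2208 FPKM (a level scaled to transcript length and library size) in replicates 1, 2 and 3, a mean of 2181 ± 41.2 FPKM (SD, n = 3), and ranked 3 of all genes. FTH1 had 416, 407 and 409 FPKM, a mean of 410 ± 4.98 FPKM (SD, n = 3), rank 63. It is ENSG00000167996, on the minus strand of chromosome 11 at 61959718 to 61967634. On this scale, which is per length, light-chain RNA stood above heavy-chain RNA in each library, by 5.13, 5.41 and 5.40 times. NCOA4, the ferritin cargo receptor (chromosome 10 at 46005088 to 46030714, minus strand), had 131.7, 132.2 and 134.8 FPKM, with a mean of 133 ± 1.69 FPKM (SD, n = 3) at rank 154. Processed pseudogenes of both ferritin chains can share reads with the genes. The table held 14 FTH1 pseudogenes with a summed mean of 18.7 FPKM, 4.55% of FTH1, and 4 FTL pseudogenes with 1.80 FPKM, 0.0826% of FTL. Of these 18 pseudogenes, 7 had a mean of 1 FPKM or more. The handling of reads shared with such copies was not given in the sources used here, which leaves both ferritin levels uncertain.

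Of the transporters, the importers stood above the exporter. TFRC (chromosome 3 at 196027183 to 196082096, minus strand) had 48.06, 48.05 and 47.81 FPKM. Its mean of 47.97 ± 0.139 FPKM (SD, n = 3) was the tightest of the 9 genes relative to its size, with a coefficient of variation (SD over mean) of 0.291%. SLC11A2 (chromosome 12 at 50979401 to 51028566, minus strand) had 9.005, 9.465 and 9.024 FPKM (mean 9.16 ± 0.26 SD, n = 3). SLC40A1 (chromosome 2 at 189560590 to 189583758, minus strand) was the lowest of the group at 1.65, 2.18 and 1.78 FPKM, with a mean of 1.87 ± 0.275 FPKM (SD, n = 3) and rank 10401. The level of TFRC was 29.1, 22.1 and 26.8 times that of SLC40A1 in the 3 libraries.

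HMOX1 and IREB2 lay in the middle of the order, and ACO1 near its low end. IREB2 (IRP2, chromosome 15 at 78437431 to 78501453, plus strand) had 15.9, 16.2 and 15.6 FPKM (mean 15.9 ± 0.302 SD, n = 3). ACO1 (IRP1, chromosome 9 at 32384603 to 32454769, plus strand) had 3.56, 3.54 and 3.52 FPKM (mean 3.54 ± 0.0221 SD, n = 3). The level of IREB2 was thus 4.48, 4.57 and 4.43 times that of ACO1. HMOX1 (chromosome 22 at 35380361 to 35394207, plus strand) had 17.4, 13.0 and 18.5 FPKM (mean 16.3 ± 2.87 SD, n = 3), with replicate 2 below the other libraries. Its coefficient of variation of 17.6% lay at percentile 98.3 of 2819 genes with a mean from 10 to 30 FPKM, whose median was 4.04%. That of SLC40A1, 14.7%, lay at percentile 62.9 of 3942 genes with a mean from 1 to 3 FPKM (median 11.3%).

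From high to low the order was FTL, FTH1, NCOA4, TFRC, HMOX1, IREB2, SLC11A2, ACO1 and SLC40A1. HMOX1 and IREB2 overlapped in range, so their order is not set by these libraries. The ranges of the other 7 neighbouring pairs did not overlap, and their means differed from 1.74 times (IREB2 and SLC11A2) to 5.31 times (FTL and FTH1). All 9 genes had a mean of 1 FPKM or more, against 38.3% of all genes.

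**Figure D1:**
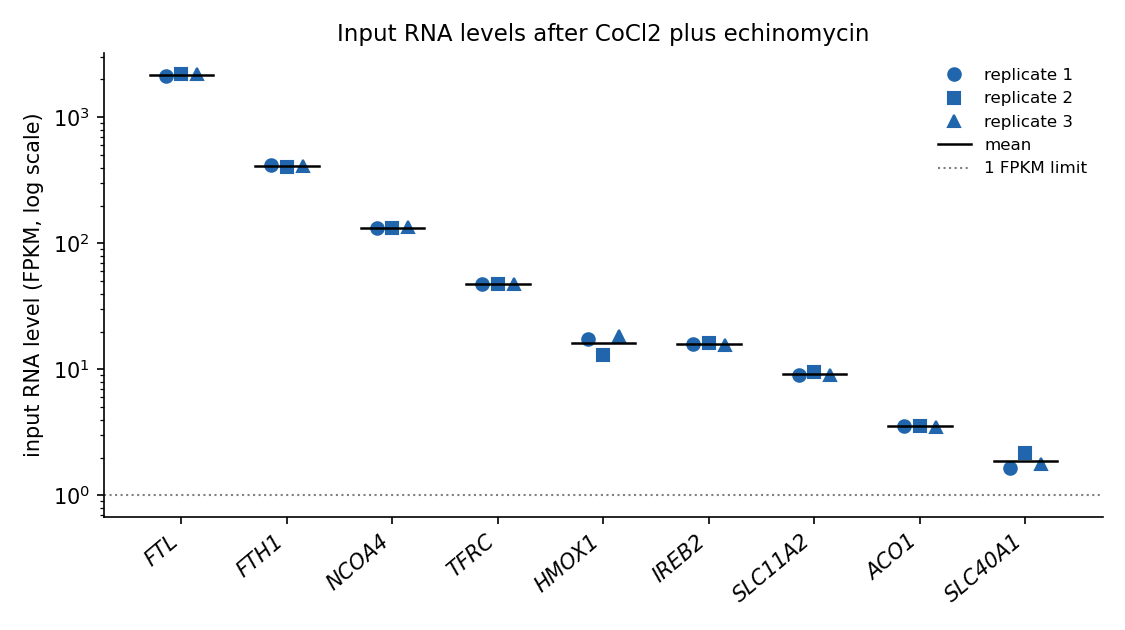
Input RNA level of each gene in FPKM on a log axis, one symbol per replicate of the combined treatment (n = 3), with a bar at the mean and a dotted line at 1 FPKM. Levels run from 2181 FPKM for FTL to 1.87 FPKM for SLC40A1, and only HMOX1 and IREB2 overlap.

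The labelled cell type was compared with its markers. Of 8 genes chosen to mark the myeloid leukaemia line, 7 had 1 FPKM or more, with summed levels of 168 to 187 FPKM per library. Of the erythroid markers 1 of 7 reached the limit (summed 5.76 to 5.85 FPKM, with 4 not listed in the table), as did 1 of 5 macrophage markers (38.3 to 42.2 FPKM), 2 of 5 lymphoid (35.0 to 40.9 FPKM) and 1 of 4 fibroblast and epithelial markers (9.61 to 10.3 FPKM). The part of these other lineages' genes in the values of the 9 iron genes was not tested. Depth per library is unknown from FPKM values, so no counting interval was made.

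After the combined treatment, 7 of the 9 genes carried at least 1 listed m6A peak, and the light chain FTL and the sensor ACO1 carried none. Over all genes of 1 FPKM or more, 79.7% had a listed peak, so the share in this group was close to the background. Among the genes of highest level, where FTL stands, 10 of the top 20 and 119 of the top 200 had one. Of 1788 genes within 1.25 times the level of ACO1, 1431 (80.0%) had one. The missing entries mean that no peak is listed for FTL or ACO1, not that their transcripts lack m6A.

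The 7 genes had 16 listed peaks, of which 6 were labelled 5' UTR, 6 were labelled 3' UTR and 4 lay in other exons. Over all listed peaks, 23.1% were labelled 5' UTR, 42.5% were labelled 3' UTR and 34.3% lay in other exons. SLC11A2 had 5 peaks, TFRC and NCOA4 had 3 each, IREB2 had 2, and FTH1, HMOX1 and SLC40A1 had 1 each. Fold enrichment, the authors' own value of pulldown over input for each peak, ran from 1.34 to 13.0 with a median of 3.49. Over all listed peaks the median was 4.53, with quartiles of 2.63 and 7.45. Of the 16 peaks, 9 were made of more than 1 block, against 35.6% of all listed peaks, and 15 were under the authors' false discovery rate (FDR) of 0.05.

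**Figure D2:**
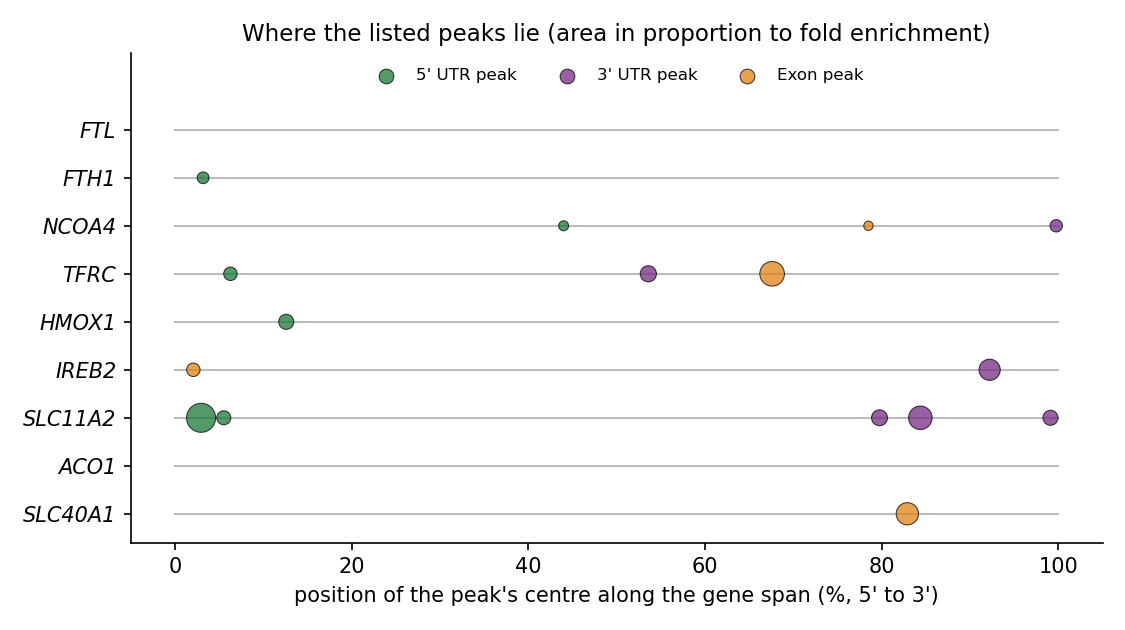
Position of each listed peak's centre along the genomic span of its gene in the expression table, in percent from the 5' to the 3' end, coloured by region, with area in proportion to fold enrichment. FTL and ACO1 have no peak, FTH1 and HMOX1 have 1 near the start, and SLC40A1 has 1 at 82.9%.

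The listed peaks of FTH1 and NCOA4 had fold enrichments below the lower quartile of all listed peaks (2.63). The single FTH1 peak was labelled 5' UTR, on chromosome 11 at 61967130 to 61967634, and covered 360 exonic bases at the very start of the gene. Its fold enrichment of 2.13 lay at percentile 15.7 of all listed peaks, but its log10 p was -653. Beside it, 2 peaks assigned to BEST1, a chloride channel gene on the opposite strand, lay within the span of FTH1. The first, at 61962250 to 61963388, had a fold enrichment of 7.03, and the second, at 61964077 to 61964437, had 2.57. BEST1 had 1.24, 1.83 and 1.47 FPKM. Strand use in peak calling was not given in the sources used here. Which gene these 2 peaks come from was not tested, and BEST1 was named after its values were seen. The 3 NCOA4 peaks had fold enrichments of 2.37 (3' UTR, chromosome 10 at 46005088 to 46005208), 1.34 (exon 8 of 10) and 1.53 (5' UTR), with the exon peak at percentile 1.27 of all listed peaks. Ferritin pseudogenes had 5 listed peaks in 4 genes, 3 of them under the FDR.

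Peaks of the transporters had fold enrichments of 2.79 to 13.0, against 1.34 to 2.37 for those of FTH1 and NCOA4. The TFRC peak labelled 5' UTR, at 196075205 to 196082096 on chromosome 3, had 2.79 and joined 3 exon blocks of 481 bases in all. Its 3' UTR peak had a fold enrichment of 4.03, at 196051784 to 196053556, with the lowest log10 p of the 16 peaks (-725). The third, of 9.31 at 196044724 to 196045225, carried an exon of another gene and had a log10 p of -2.50. The authors assigned the 5' UTR peak to a TFRC transcript at 196049284 to 196082090, and the other 2 to one at 196027183 to 196055214. The 3' UTR peak lies within both transcripts, and the third peak lies beyond the end of the first. The iron-responsive elements of the TFRC 3' UTR were not located here. SLC11A2 had the highest enrichment of the group, 13.0, in a 5' UTR peak on chromosome 12 at 51026000 to 51028227 that joined 3 exon blocks, but its log10 p was only -6.07. The 3' UTR peak of SLC11A2 at 50986646 to 50987515 was a single block of 870 bases with a fold enrichment of 8.52 and a log10 p of -174. Its other 3 peaks had fold enrichments of 3.03 to 3.92. The SLC40A1 peak had 7.59, on chromosome 2 at 189563687 to 189565413, and was annotated to exon 6 of 8, towards the 3' end of the transcript.

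The sensor IREB2 had a 3' UTR peak of 6.90 on chromosome 15 at 78494247 to 78498700. It joined 3 blocks of 899 bases in all, the widest coverage of any listed peak of the 9 genes, and had a log10 p of -712. A second IREB2 peak of 61 bases near the start, at 2.79, was the 1 listed peak of the group that did not pass the FDR. The single HMOX1 peak, at 35381083 to 35383127 on chromosome 22, was labelled 5' UTR and had a fold enrichment of 3.50. Among the 8 peaks that the authors also compared with CoCl2, enrichment lay between 2.13 in FTH1 and 8.52 in SLC11A2.

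**Figure D3:**
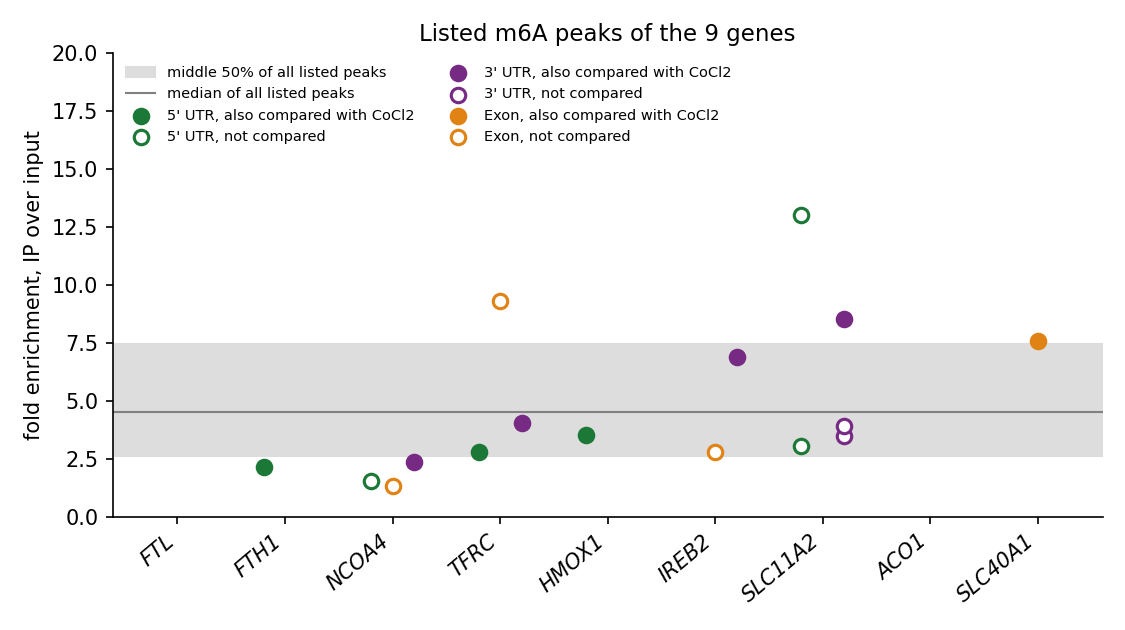
Fold enrichment of pulldown over input for the 16 listed peaks, by gene and region, filled where the peak was also compared with CoCl2 and open where it was not. The grey band spans the quartiles of all listed peaks (2.63 to 7.45) and the line is their median (4.53), with all NCOA4 peaks and the FTH1 peak below the band.

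With echinomycin added to CoCl2, the authors' deposited table listed m6A enrichment as higher at peaks of TFRC, SLC11A2, NCOA4 and HMOX1, and lower at those of FTH1, SLC40A1 and IREB2. In the authors' deposited table, all 8 compared peaks of the group passed the FDR of 0.05, in 7 genes, against 68.9% of all 19983 compared peaks. Of the 8 peaks in the authors' deposited table, 5 were higher and 3 lower, against 23.1% higher and 45.8% lower over all compared peaks. Counted as genes by the peak of lowest p in the authors' deposited table, 4 were higher and 3 lower, beside 22.6% higher and 52.7% lower of all 11315 genes with a compared peak. The median log2 fold change was 0.42 for the 8 peaks and -0.43 for all peaks of the authors' deposited table. With so few peaks, nothing particular to the group is drawn from these counts. The table holds 1 value per peak without replicates, and no error can be given.

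Among uptake genes, both compared TFRC peaks were higher. In the authors' deposited table the 5' UTR peak had a log2 fold change of 0.79 (1.73 times, log10 FDR -52.1) and the 3' UTR peak one of 0.53 (1.44 times, log10 FDR -70.4). The compared bases of both lay wholly within listed peaks, as did those of FTH1, HMOX1 and SLC11A2. For NCOA4, SLC40A1 and IREB2 the shares of compared bases within a listed peak were 80.1%, 83.3% and 96.8%. For SLC11A2, the authors' deposited table gave 0.38 (1.30 times, log10 FDR -5.08) at the 870-base 3' UTR peak, the only 1 of its 5 peaks that was compared. The 5' UTR peak of SLC11A2 with an enrichment of 13.0 was not among the compared peaks.

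Among storage genes the directions differed. The FTH1 peak at the gene's start was lower in the authors' deposited table, at a log2 fold change of -0.55 (0.685 times, log10 FDR -206), and only 0.26% of all compared peaks had an FDR as low. Its log2 fold change lay at percentile 43.0 of all compared peaks in the authors' deposited table, near the middle. The neighbouring peak assigned to BEST1 within the span of FTH1 was also lower in the authors' deposited table, at -1.25 (log10 FDR -24.3). NCOA4 was higher in the authors' deposited table, at 0.47 (1.38 times, log10 FDR -3.48) in its 3' UTR. FTL had no compared peak, and of the ferritin pseudogenes only FTLP12 did, at -3.11 in the authors' deposited table, in a gene of 0.319 FPKM that was named after its value was seen. Whether that FTLP12 peak passed the FDR is not given here.

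HMOX1 had the highest value of the group. In the authors' deposited table its 5' UTR peak had a log2 fold change of 0.89 (1.85 times, log10 FDR -7.31), at percentile 84.6 of all compared peaks. The compared peak covered 210 bases, all within the listed peak. HMOX1 was also the gene whose input level varied most between replicates, and the part of that spread in the fold change was not tested.

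The exporter SLC40A1 had the lowest value of the group. Its exon peak in the authors' deposited table was at -0.72 (0.606 times, log10 FDR -5.47), at percentile 31.6 of all compared peaks. IREB2 was at -0.18 (0.88 times, log10 FDR -4.85) in the authors' deposited table, the smallest change of the group, which lay above the median of all compared peaks. ACO1 had no compared peak.

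No change in the group reached 2-fold in the authors' deposited table. Absolute log2 fold changes ran from 0.18 to 0.89 with a median of 0.54 in the authors' deposited table, against a median of 0.70 and quartiles of 0.478 and 0.999 over all peaks that passed the FDR. By region, 2 of 3 compared 5' UTR peaks and 3 of 4 compared 3' UTR peaks of the group were higher in the authors' deposited table, and the 1 compared exon peak, that of SLC40A1, was lower. Over all compared peaks of the authors' deposited table, 28.1% were higher and 43.3% lower in 5' UTRs, and 22.9% were higher and 53.7% lower in 3' UTRs. In other exons 19.0% were higher and 34.3% lower in the authors' deposited table. The 8 listed peaks that were compared had log10 p from -42.5 to -725, and the 8 that were not compared had -1.52 to -50.4. How RNA levels in the CoCl2 libraries entered the fold change was not given in the sources used here. RNA levels after CoCl2 alone were not analysed here, and the part of RNA abundance in these fold changes was not tested.

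**Figure D4:**
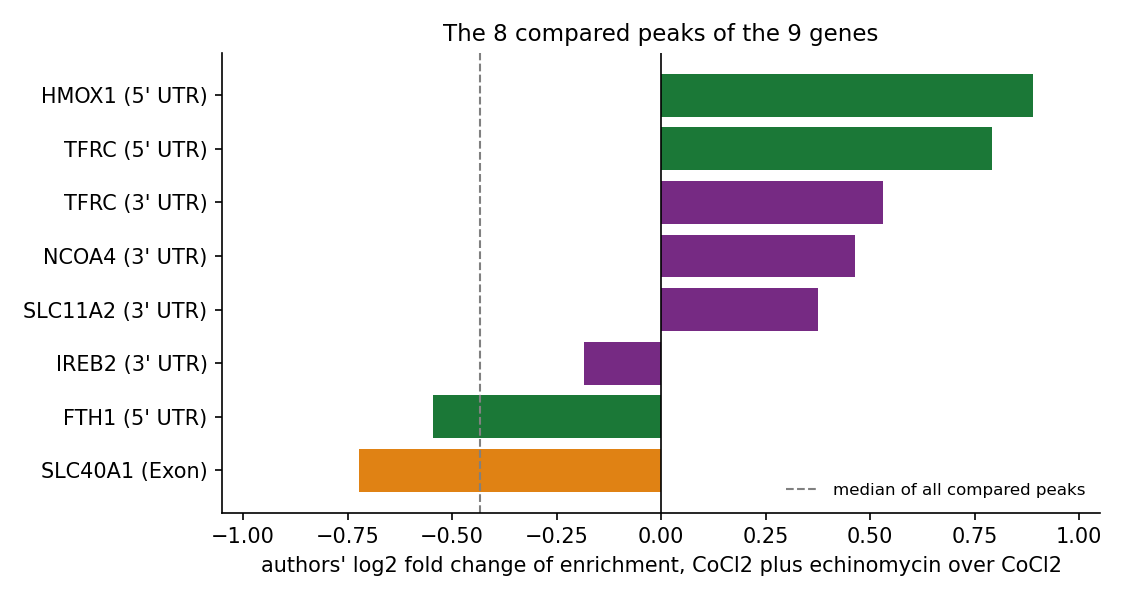
The authors' log2 fold change of m6A enrichment, combined treatment over CoCl2, for the 8 compared peaks, coloured by region, with a dashed line at the median of all compared peaks (-0.43). The 5 peaks of HMOX1, TFRC, NCOA4 and SLC11A2 lie above 0 and those of IREB2, FTH1 and SLC40A1 below it.

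Around these genes, 45 others of iron and haem handling were taken by role. Of these, 30 had 1 FPKM or more and 26 of the 30 (86.7%) had a listed peak, beside the 79.7% of all such genes. A compared peak in the authors' deposited table was found for 22 of them, of which 7 were higher, 12 lower and 3 did not pass the FDR at their peak of lowest p, with a median log2 fold change of -0.45. As shares these were 31.8% higher and 54.5% lower, against 22.6% and 52.7% of all genes with a compared peak, so the share of lower genes was near the background.

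Other genes of uptake and transport moved in both directions. STEAP3, an endosomal ferrireductase, was in the authors' deposited table at -0.99 (log10 FDR -4.70), SLC39A14, a zinc and iron importer, at -0.43, and the mitochondrial iron importer mitoferrin-2 (SLC25A28) at -0.53. Mitoferrin-1 (SLC25A37) was at 0.80 in the authors' deposited table at its 5' UTR, beside 2 of its peaks that were lower. Of 11 genes, 6 had a compared peak, with 1 higher and 3 lower in the authors' deposited table. At the peak of lowest p these were 16.7% higher and 50% lower, against 22.6% and 52.7% of all genes with a compared peak. TF, transferrin, at 3.58 (log10 FDR -0.416) and SLC39A8, a zinc and iron importer, at -0.97 (log10 FDR -1.21) did not pass the FDR in the authors' deposited table. TF was named after its value was seen.

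The 3 compared regulators were lower at their peaks of lowest p, as were 52.7% of all genes. Taken at the peak of largest absolute change in the authors' deposited table, 0 were lower, 1 (FBXL5) was higher and 2 did not pass the FDR. FBXL5, the ligase subunit that targets IRP2 for degradation, was in the authors' deposited table at -0.59 in its 3' UTR, beside a 5' UTR peak at 0.68. BACH1, the haem-binding repressor of HMOX1, was at -0.74 in its 3' UTR in the authors' deposited table, with a log10 FDR of -76.4 and an input level of 11.8 ± 0.251 FPKM (SD, n = 3). BMP6 was at -1.57 in the authors' deposited table, at only 0.213 FPKM. The iron chaperone gene PCBP1, at 155 ± 1.25 FPKM (SD, n = 3), was at -0.33 in the authors' deposited table.

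In haem synthesis, 2 of 3 compared genes were higher at the peak of lowest p, beside 22.6% of all genes. At the peak of largest absolute change in the authors' deposited table, only 1 was higher and 2 did not pass the FDR, among them UROD at 2.36 (log10 FDR -0.978). UROD, at 1.18 (log10 FDR -9.05), ALAD, at 0.95, and PPOX, at -0.47 in the authors' deposited table, are all enzymes of the pathway. ALAS1, the housekeeping form of the first enzyme, had 51.0 ± 1.28 FPKM (SD, n = 3) and no listed peak. In haem breakdown HMOX2, the constitutive haem oxygenase, had 3 lower peaks in the authors' deposited table, that of lowest p at -0.29, where HMOX1 was higher. The biliverdin reductase genes BLVRA and BLVRB had no listed peak.

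The haem exporter FLVCR1, of the genes grouped under export, was at -0.86 (log10 FDR -2.54) in the authors' deposited table at its 5' UTR. That peak had an enrichment of 58.7. FLVCR1 also had a 3' UTR peak at 0.77 (log10 FDR -1.5) in the authors' deposited table. FLVCR2, a related transporter, was at 0.56 and CP, ceruloplasmin, at 0.89 in the authors' deposited table, the second in a gene at 0.00131 FPKM. HEPH, a ferroxidase named after its value was seen, was at -2.81 (log10 FDR -0.439) in the authors' deposited table and did not pass the FDR. Among 4 compared genes of iron-sulphur clusters, 2 were higher and 2 lower in the authors' deposited table. These were 50% each, against 22.6% higher and 52.7% lower of all genes with a compared peak. The higher ones there were the co-chaperone HSCB at 0.74 and ISCA1 at 0.37. The lower ones in the authors' deposited table were the cysteine desulphurase NFS1 at -0.94 and GLRX5 at -0.50.

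**Figure D5:**
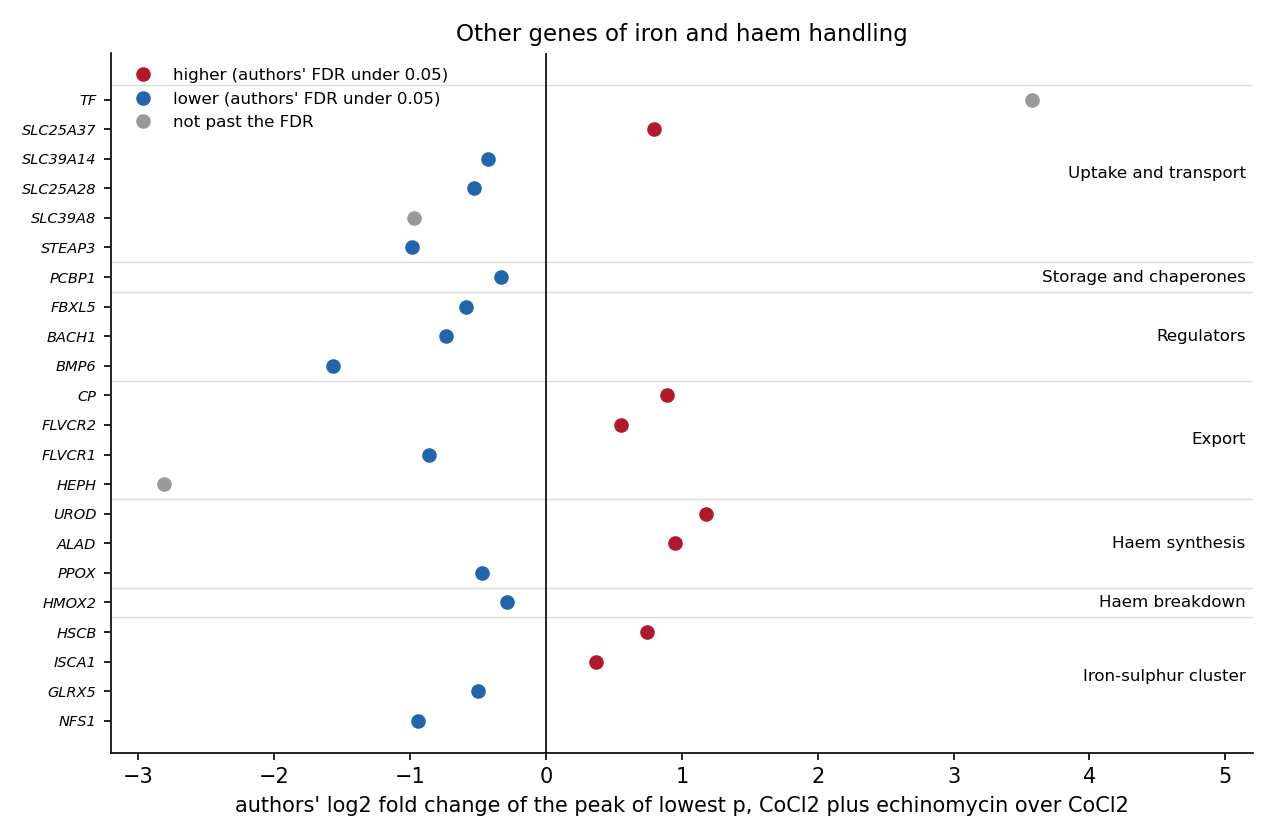
The authors' log2 fold change at the compared peak of lowest p for 22 other genes of iron and haem handling, grouped by role and coloured by whether the peak passed the authors' FDR of 0.05. Of these genes 7 are higher and 12 lower, and the extreme values of TF (3.58) and HEPH (-2.81) did not pass.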

How the data were processed

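The members and lists were chosen with earlier results of these data known. The authors deposited FPKM values per gene for each input, per the file headers. A further 6 per-sample columns, named for control and CoCl2 inputs, match none of the labelled samples and were not used. The peak list gives, per the file headers, a fold enrichment as a linear ratio, a p-value per peak, and log10 p and FDR, each taken as a score, with 1929 FDR values at minus infinity. The differential list gives, per the file headers, a log2 fold change and a p-value, with log10 FDR treated as a score. ChIPseeker, fastp, HISAT2 and HOMER are named, without roles, per the submitters' processing notes. Peak and differential callers, the FPKM tool, the build and how replicates were combined were not given in the sources used here.

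From the name of the differential table, its fold change was read with the combined treatment on top and CoCl2 below. By whole span, 62 of 62 compared peaks with a log2 fold change above 4 overlapped the combined treatment's peak list, against 4 of 49 below -4. Coordinates are the files' own. Of 23238 symbols, 99.94% overlapped their place in GRCh38.p14, as did all 9 members. Low FPKM values showed no steps of whole reads: the most common ratio between libraries held 0.658% of 5019 low genes. No pair of input columns was identical.

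Peaks were called changed where the authors' FDR was under 0.05. Names in the text follow a rule: all members, and of the other genes of the pathway those with a changed peak or among the 3 highest of their role. Of that list, 1 gene is not reported here and was left out of its counts. Exceptions are marked as named after their values were seen. Peaks were matched by gene name for members and by gene ID for counts of listed peaks over all genes. A gene's peak of lowest p was picked by gene name. The peak list repeats 16 lines and the differential list 4. Python 3.11.15, numpy 2.4.6, pandas 2.3.3 and matplotlib 3.10.9 were used. Overlap, percentile and lowest-p functions were tested on simulated data.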

Additional observations from a re-analysis of the deposited data

How the results depend on the processing

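No paired analysis was possible because the labelled samples are of 1 condition and columns of other conditions were not used. No test between samples was run here, and the calls of changed peaks are the authors' own. All 45 recomputed levels of the 9 genes (without each replicate, as a median, or scaled to the 75th percentile) stayed within 1 SD. With so few libraries, leaving out a replicate or taking the median cannot move a level by more than 1 SD. Those settings therefore say nothing about stability. Only the scaling to the 75th percentile could have gone outside 1 SD, and it did not for any of the 9 genes. The percentiles of the 9 genes were computed among genes of 1 FPKM or more. Among all genes above 0 all 9 percentiles moved, since more low genes enter. Of 53 recomputed counts and medians, 46 kept within 1.5 times or 1 SD. Without each replicate, 9 of the 9 genes and 30 of the other pathway genes kept the limit of 1 FPKM. At 5 FPKM the pathway genes numbered 16, of which 13 had a listed peak. At a 2-fold limit in the authors' deposited table, 0 of the 8 changed peaks of the 9 genes remained, so 0 genes were higher and 0 lower, and the pathway list had 1 higher and 1 lower. With the peak of largest absolute change in place of the lowest p, 8 pathway genes were lower, against 12 by the lowest p, in the authors' deposited table. Each list gives 1 value per peak, so no precision follows from depth.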

Other observations

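Opposite changes at the 5' and 3' ends of 1 gene, seen in FBXL5 and SLC25A37, were counted over all genes after the data were seen. Whether both peaks of a gene lie on 1 transcript was not tested. In the authors' deposited table, 1256 genes had a changed peak in both the 5' UTR and the 3' UTR, each end taken at its peak of lowest p. Of these genes of the authors' deposited table, 301 were higher at the 5' end and lower at the 3' end, 153 the reverse, 224 higher at both and 578 lower at both. Among the pathway genes of the authors' deposited table, 2 of 5 were of the first kind: FBXL5 (0.68 and -0.59) and SLC25A37 (0.80 and -0.45). FLVCR1 was the reverse in the authors' deposited table (-0.86 and 0.77). HMOX2 (-0.29 and -0.70) and STEAP3 (-0.99 and -0.54) were lower at both ends in the authors' deposited table. TFRC was the 1 gene of the group of 9 with both ends compared, and both were higher.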
